A study of Gallus gallus with 30 samples.

Results

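The 100 transcripts described here are those with the lowest levels in electroporated right otocysts of the chicken embryo relative to the untransfected left otocysts of the same embryos. For each embryo, r was taken as the log2 of TPM + 1 on the right over TPM + 1 on the left, where TPM is the relative abundance of a transcript, scaled for its length and for library size. Of 28756 transcripts listed, 11540 had a mean of at least 5 TPM over the 18 libraries of electroporated embryos. Of these, 1096 had a mean r below 0 in each of the 3 electroporated sets and an r below 0 in at least 8 of the 9 embryos, and the 100 with the lowest mean r over the 9 embryos were taken. These in ovo values chose the members, so the differences between right and left are given below as a description and carry no test. 31 members have a gene symbol in the study's tables, for 30 genes, against 6.05% of all transcripts of at least 5 TPM. The symbols came from lists of genes that the study called changed, so the named members are not a random sample of the 100.

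All otocysts came from White Leghorn embryos, and a set was made of 3 embryos, each giving a treated right otocyst and its left counterpart. In ovo, the right otic cup had been electroporated at embryonic day 2 with a plasmid for NICD1, the part of the NOTCH1 receptor that enters the nucleus, and for mRFP1, a red fluorescent protein, and was collected after 24 h or after 6 h. Another set received mRFP1 alone and was collected after 24 h. The labels give an age of embryonic day 3 for the 24 h sets and of 2.5 for the 6 h set. In the remaining 6 embryos, whose label age is embryonic day 2.5, both otocysts were dissected and cultured free-floating for 24 h or 6 h, the right one in 10 µM LY411575 and the left one in DMSO, the solvent. LY411575 blocks γ-secretase, the protease that frees the intracellular domain of Notch receptors. Transfection is mosaic, only strongly fluorescent embryos were kept, and each otocyst, cleaned of mesenchyme, gave its own library. Since every treated otocyst was a right one, side and treatment cannot be told apart within a set. The cultured sets were treated on the right as well and did not enter the choice of members.

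The otocyst is the closed epithelial vesicle that forms from the otic placode and gives rise to the inner ear and its ganglion. Its epithelium is surrounded by periotic mesenchyme and by cells of neural crest origin, and it exchanges secreted signals and matrix with both. Electroporation opens the cell membrane with electric pulses so that plasmid DNA can enter, and a control plasmid carries the handling, the pulses and the foreign DNA without the gene of interest.

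The named members fell into a few groups by what they are known to do. Secreted and matrix proteins were COL2A1 and COL9A3, chains of the fibrillar type II and the associated type IX collagen, BMPER, a secreted binder of bone morphogenetic proteins, WNT2B, a Wnt ligand, PRLH, the prolactin-releasing peptide precursor, FNDC1, a protein with fibronectin type III domains, and CPAMD8, of the alpha-2-macroglobulin family. NDST1 modifies heparan sulfate and P4HA1 hydroxylates prolines of collagen. Receptors and adhesion proteins were HTR1E and ADRA2A, receptors for serotonin and adrenaline, RET and ERBB3, receptors of the tyrosine kinase families for GDNF-type ligands and neuregulins, 2 transcripts of PTPRF, a receptor tyrosine phosphatase, ITGB5, an integrin subunit, UNC5B, a netrin receptor, KIRREL1, an adhesion protein of the nephrin family, PLXDC1 and TFRC, the transferrin receptor. Transporters were SLC16A3, which exports lactate, SLC1A7, a glutamate transporter, SLC26A9, an anion transporter, and SLC4A8, a bicarbonate transporter. The other named members were PFKFB3, which makes an activator of glycolysis, MSX1, a homeobox factor, KDM5B, a histone demethylase, the proteases CAPN2 and NPEPPS, CA10, a carbonic anhydrase-related protein, and ZNF395.

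Over the 9 embryos the members' mean r ran from -1.67 to -0.62, and 13 members were more than 2-fold lower on the right. The rule ended between mean r values of -0.618675 for the last member and -0.616425 for the first transcript left out, with -0.620283 and -0.615053 as the next on either side. 31 members had an r below 0 in all 9 embryos and 69 in 8 of them. The named ones among the 31 were COL2A1, CAPN2, COL9A3, the PTPRF transcript ENSGALT00000091047.1, SLC4A8, ADRA2A, ITGB5, ERBB3, P4HA1, NPEPPS and ZNF395. The members were longer than other transcripts of at least 5 TPM, with a median of 2558.5 bases against 2140 bases. Their levels were lower, with a median of the mean TPM of 12.9 against 24.5 TPM. 66 of the 100 had a fractional estimated count in at least 1 library, against 62.3% of all such transcripts, which means that some of their reads fit several transcripts and were shared out by the software. Across all transcripts of at least 5 TPM, Spearman's rho of mean r with transcript length was -0.21 in the NICD1 24 h set. It was -0.39 in the mRFP1 24 h set, so longer transcripts tended to lower r in these 24 h sets. In the NICD1 6 h set it was -0.06, with little relation to length. In the cultured sets it was -0.25 after 24 h and 0.10 after 6 h of LY411575. With the trend on length taken out of r, a setting added after seeing the data, the rule took 67 of the 100 members.

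**Figure D1:**
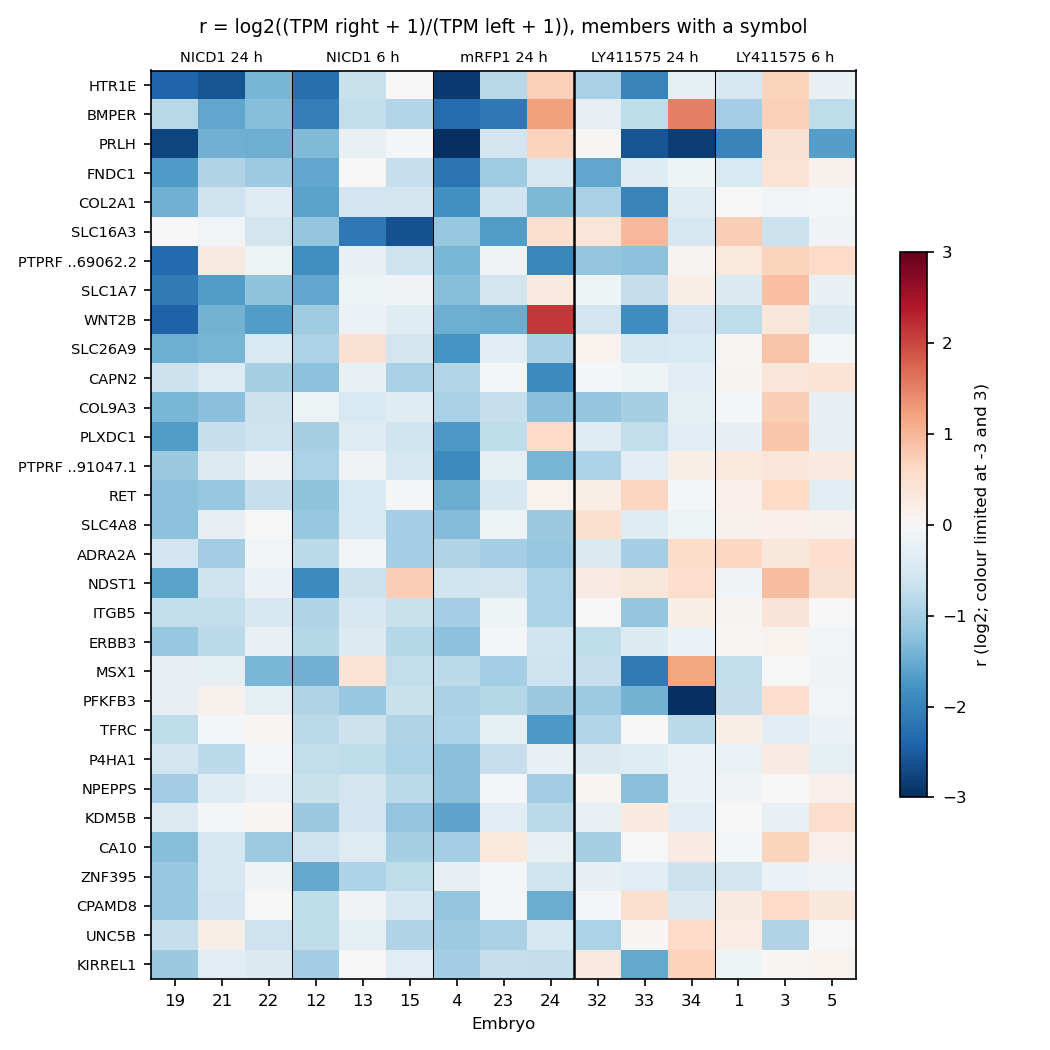
Heat map of r, the log2 of TPM + 1 on the right over TPM + 1 on the left, for the 31 members with a symbol (rows, lowest mean r at the top) in the 15 embryos (columns, grouped by set, the 6 cultured embryos right of the thick line). Blue is lower on the right, as in nearly all cells of the 9 electroporated embryos, while the LY411575 6 h columns (embryos 1, 3 and 5) hold both colours.

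HTR1E had the lowest mean r of the named members, -1.37 ± 1.25 (SD, n = 9 embryos). Its level was 7.19, 8.28 and 17.9 TPM in NICD1 otocysts after 24 h (embryos 19, 21 and 22), against 42.2, 54.7 and 48.3 TPM in the left otocysts. After 6 h it was 4.51, 52.3 and 33.6 TPM with NICD1 (embryos 12, 13 and 15), against 25.2, 83.4 and 34.1 TPM on the left. With mRFP1 alone it was 11.8, 49.9 and 7.90 TPM (embryos 4, 23 and 24), against 93.2, 90.2 and 4.43 TPM. The sides did not overlap in the NICD1 24 h set and overlapped in the others, and embryo 24 was the one exception to the direction. In culture its level was 6.29, 11.8 and 26.5 TPM with LY411575 for 24 h (embryos 32, 33 and 34), against 13.4, 49.4 and 32.4 TPM in DMSO. After 6 h it was 55.1, 71.7 and 76.8 TPM with LY411575 (embryos 1, 3 and 5), against 79.2, 45.0 and 90.0 TPM in DMSO. The 24 h pairs were all lower with the inhibitor, and the change of -1.05 ± 0.62 on the log2 scale did not pass the test (edgeR, adjusted p = 0.432).

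BMPER followed with a mean r of -1.18 ± 1.08 (SD, n = 9). NICD1 otocysts held 11.6, 9.32 and 8.70 TPM after 24 h, against 21.4, 29.5 and 22.6 TPM on the left. After 6 h, NICD1 otocysts held 5.16, 14.2 and 8.78 TPM, against 24.6, 24.4 and 17.1 TPM. In both NICD1 sets every right otocyst was below every left one. With mRFP1 the levels were 8.64, 4.70 and 37.9 TPM, against 46.9, 24.3 and 15.7 TPM, so that embryo 24 again ran the other way. In culture BMPER was 3.13, 5.19 and 20.0 TPM with LY411575 for 24 h, against 3.89, 9.46 and 6.34 TPM in DMSO. The 6 h values were 14.7, 32.5 and 16.6 TPM with LY411575, against 30.8, 19.4 and 28.9 TPM in DMSO. At both times the cultured groups overlapped and the pairs disagreed in direction.

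PRLH had a mean r of -1.18 ± 1.32 (SD, n = 9). It was at 5.07, 24.7 and 12.9 TPM in NICD1 24 h otocysts, against 40.0, 68.9 and 37.4 TPM on the left, with no overlap. It was at 2.64, 23.0 and 12.2 TPM in NICD1 6 h otocysts, against 8.12, 27.0 and 12.5 TPM, and at 2.88, 27.5 and 1.71 TPM with mRFP1, against 41.6, 40.8 and 0.701 TPM. In these last sets the sides overlapped. Cultured levels for 24 h were 0.357, 1.05 and 0 TPM with LY411575, against 0.320, 11.4 and 6.20 TPM in DMSO, and for 6 h 8.99, 23.7 and 7.56 TPM with LY411575, against 38.2, 16.9 and 25.8 TPM in DMSO. The 24 h change, -2.97 ± 1.15 on the log2 scale, did not pass the test with edgeR (adjusted p = 0.195) and passed it with DESeq2 (adjusted p = 0.0345).

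FNDC1 averaged a mean r of -1.08 ± 0.67 (SD, n = 9). Its levels were 5.38, 5.66 and 4.81 TPM with NICD1 for 24 h, against 19.7, 11.5 and 11.3 TPM on the left, again with no overlap. With NICD1 for 6 h they were 4.96, 12.8 and 11.7 TPM, against 16.6, 12.7 and 19.4 TPM, and with mRFP1 they were 6.16, 10.5 and 3.40 TPM, against 31.7, 23.1 and 5.24 TPM. Embryo 13 was the exception, with an r of 0.01. In culture the levels were 7.62, 20.1 and 22.6 TPM with LY411575 for 24 h, against 24.3, 26.3 and 24.9 TPM in DMSO, and 33.3, 59.9 and 49.3 TPM with LY411575 for 6 h, against 46.4, 43.8 and 45.1 TPM in DMSO. In all 3 of the 24 h pairs the right otocyst was the lower one.

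COL2A1 was lower on the right in all 9 electroporated embryos, with a mean r of -0.99 ± 0.55 (SD). NICD1 otocysts had 50.3, 145 and 191 TPM after 24 h, against 139, 224 and 251 TPM on the left, and 73.3, 182 and 212 TPM after 6 h, against 224, 269 and 311 TPM. With mRFP1 the levels were 34.7, 231 and 42.7 TPM, against 125, 351 and 110 TPM. Every pair pointed down, while the levels of different embryos spread over a wide range. In culture COL2A1 was at 16.8, 11.1 and 33.8 TPM with LY411575 for 24 h, against 33.9, 46.9 and 44.5 TPM in DMSO. After 6 h it was at 258, 229 and 237 TPM with LY411575, against 259, 241 and 248 TPM in DMSO. The 6 h sides differed little, with an r of -0.01, -0.08 and -0.07, and the 24 h groups just failed to overlap, with 33.8 TPM as the highest LY411575 value and 33.9 TPM as the lowest DMSO value. The 24 h change of -1.03 ± 0.31 on the log2 scale missed the threshold (edgeR, adjusted p = 0.0908) and passed it with DESeq2 (adjusted p = 0.00663).

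SLC16A3 stood out by set. In NICD1 6 h otocysts it was at 14.6, 17.6 and 16.4 TPM, against 34.0, 81.5 and 106 TPM on the left, which gave r values of -1.17, -2.15 and -2.62. In NICD1 24 h otocysts it was at 40.5, 27.4 and 130 TPM, against 41.0, 28.9 and 193 TPM, with r values of -0.02, -0.07 and -0.56. With mRFP1 it was at 232, 10.8 and 31.1 TPM, against 508, 36.5 and 22.1 TPM. The 6 h sides did not overlap, and the 24 h sides overlapped over most of their range. Between cultured sides no direction was shared: the levels were 68.1, 121 and 74.9 TPM with LY411575 for 24 h, against 52.7, 61.1 and 106 TPM in DMSO, and 19.3, 10.5 and 13.3 TPM with LY411575 for 6 h, against 11.2, 17.0 and 14.4 TPM in DMSO.

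The PTPRF transcript ENSGALT00000069062.2 had a mean r of -0.93 ± 0.96 and SLC1A7 one of -0.92 ± 0.83 (SD, n = 9 each). Both transcripts of PTPRF carry fractional counts in every library, so the split of reads between them is uncertain. The first was at 2.02, 17.2 and 18.2 TPM in NICD1 24 h otocysts against 14.2, 14.2 and 20.0 TPM on the left, at 6.13, 15.9 and 15.1 TPM after 6 h against 24.6, 18.9 and 23.8 TPM, and at 3.55, 17.1 and 0.726 TPM with mRFP1 against 10.8, 18.4 and 5.74 TPM. In this transcript embryo 21 was the exception, and in the 6 h set the sides did not overlap. In culture it was at 1.39, 0.439 and 5.92 TPM with LY411575 for 24 h against 4.45, 2.35 and 5.53 TPM in DMSO, and at 36.1, 27.3 and 34.5 TPM for 6 h against 29.0, 16.7 and 22.8 TPM, so that all 3 of the 6 h pairs were higher with the inhibitor. SLC1A7 was at 1.08, 3.84 and 4.37 TPM in NICD1 24 h otocysts against 8.05, 14.4 and 11.3 TPM on the left, at 1.78, 15.4 and 6.01 TPM after 6 h against 7.24, 17.2 and 6.53 TPM, and at 7.93, 11.2 and 1.34 TPM with mRFP1 against 20.5, 16.8 and 0.919 TPM. Only the NICD1 24 h set kept the sides of SLC1A7 apart. Its cultured levels were 7.15, 6.11 and 9.70 TPM with LY411575 for 24 h against 7.89, 10.6 and 8.52 TPM in DMSO, and 9.33, 11.0 and 6.30 TPM for 6 h against 12.9, 5.41 and 7.49 TPM.

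**Figure D2:**
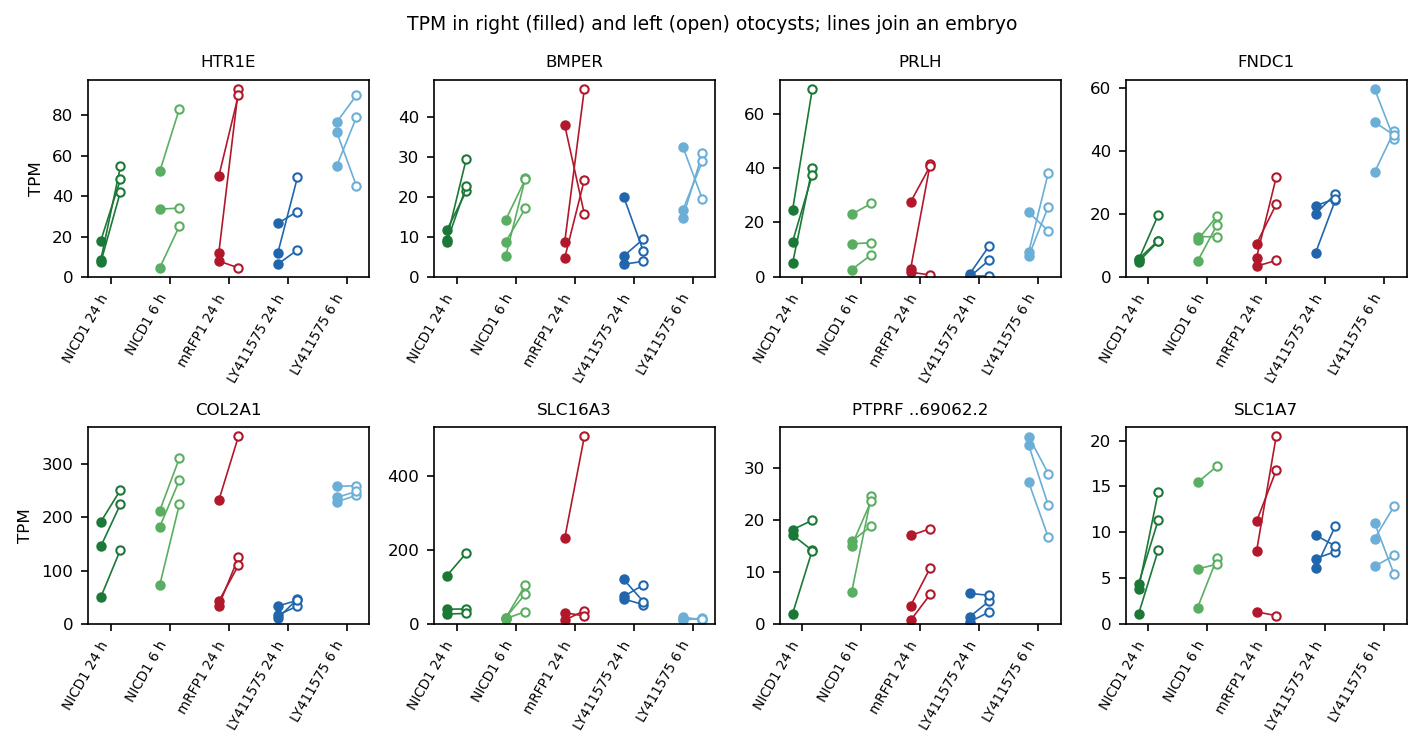
TPM of the 8 named members with the lowest mean r in right (filled) and left (open) otocysts, with a line joining the otocysts of an embryo; each panel has its own TPM axis from 0. Most lines of the electroporated sets run upward to the left otocyst, as for COL2A1 in all 9 embryos, and the downward mRFP1 24 h lines of HTR1E, BMPER, PRLH, SLC16A3 and SLC1A7 are embryo 24.

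The 2 members of lowest mean r have no symbol. ENSGALT00000104070.1, at a mean r of -1.67 ± 1.36 (SD, n = 9), was at 9.92e-10, 4.00 and 4.15 TPM in NICD1 24 h otocysts, against 2.47, 14.3 and 6.10 TPM on the left. It was at 0.400, 3.11 and 3.15 TPM after 6 h, against 19.8, 9.77 and 14.1 TPM, and at 0.000205, 6.53 and 0 TPM with mRFP1, against 0.00118, 9.03 and 11.3 TPM. In embryo 4 both otocysts were thus close to 0 and the sign of r carries little weight there. Its counts were fractional in 28 of the 30 libraries. In culture its levels were 8.28, 4.89 and 4.88 TPM with LY411575 for 24 h, against 2.45, 2.23 and 2.46 TPM in DMSO, the opposite direction to that in ovo. After 6 h they were 7.64, 2.96 and 6.53 TPM with LY411575, against 9.61, 2.62 and 5.31 TPM in DMSO. Over the 12 cultured libraries the member most like it by Pearson's r of log2(TPM + 1) had a correlation of 0.866, and the next 4, of which CPAMD8 is the named one, had 0.46 to 0.50. ENSGALT00000107519.1 was at 1.75, 13.0 and 0.201 TPM in NICD1 24 h otocysts against 5.54, 4.89 and 16.2 TPM, at 10.1, 4.23 and 0.000686 TPM after 6 h against 14.9, 16.7 and 16.8 TPM, and at 7.80, 4.51 and 2.36 TPM with mRFP1 against 28.2, 14.7 and 4.85 TPM. Embryo 21 was its exception. In culture it was at 1.25, 0 and 0 TPM with LY411575 for 24 h against 1.04, 4.37 and 0.799 TPM in DMSO, and at 26.2, 23.3 and 12.3 TPM for 6 h against 24.9, 18.1 and 18.03 TPM.

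The remaining named members were lower by less, with mean r from -0.88 for WNT2B to -0.63 for KIRREL1. WNT2B was furthest apart in the NICD1 24 h set, at 3.53, 4.68 and 2.56 TPM in right otocysts against 23.3, 14.3 and 10.3 TPM in left ones, with a mean r of -1.84 there, of -0.53 in the NICD1 6 h set and of -0.28 in the mRFP1 set. COL9A3 had a mean r of -1.09, -0.33 and -0.96 in these sets in the same order, SLC26A9 of -1.10, -0.34 and -1.03, and RET of -1.02, -0.57 and -0.64. Other members lay nearest to 0 in the NICD1 24 h set. PFKFB3 had a mean r of -0.13 in the NICD1 24 h set, of -0.91 in the NICD1 6 h set and of -0.98 in the mRFP1 set, KDM5B of -0.13, -0.95 and -0.90, and TFRC of -0.26, -0.79 and -0.98. ZNF395 was lowest after 6 h, with -0.57, -1.07 and -0.29, and ITGB5 varied least between sets among the named members, with -0.65, -0.68 and -0.71. Of the genes in this paragraph, RET, PFKFB3 and TFRC had fractional counts in all 30 libraries and KDM5B in 29 of them.

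Members that were lower in all 9 embryos differed in how far their sides lay apart. COL9A3 was at 28.2, 37.0 and 56.2 TPM in NICD1 24 h otocysts against 74.3, 89.7 and 88.0 TPM on the left, at 39.9, 49.98 and 35.6 TPM after 6 h against 44.6, 69.0 and 46.4 TPM, and at 46.4, 60.8 and 22.6 TPM with mRFP1 against 91.3, 98.2 and 55.2 TPM. ITGB5 was at 16.3, 22.9 and 31.8 TPM in NICD1 24 h otocysts against 27.6, 38.8 and 45.1 TPM, at 11.7, 24.4 and 27.4 TPM after 6 h against 22.7, 34.3 and 44.1 TPM, and at 28.8, 25.6 and 10.6 TPM with mRFP1 against 59.5, 28.6 and 21.5 TPM. The sides of COL9A3 were apart in the NICD1 24 h set and those of ITGB5 overlapped in each set. ERBB3 was at 2.20, 4.57 and 9.76 TPM in NICD1 24 h otocysts against 6.10, 8.64 and 11.5 TPM, at 4.98, 8.88 and 9.73 TPM after 6 h against 9.75, 12.1 and 18.3 TPM, and at 1.75, 12.2 and 2.57 TPM with mRFP1 against 5.46, 12.5 and 4.39 TPM. CAPN2 was at 4.94, 7.08 and 5.65 TPM in NICD1 24 h otocysts against 8.21, 9.63 and 12.3 TPM, at 3.64, 9.71 and 8.70 TPM after 6 h against 9.88, 11.6 and 17.9 TPM, and at 8.15, 8.13 and 3.65 TPM with mRFP1 against 15.7, 8.41 and 16.5 TPM. CAPN2 had all right otocysts below all left ones in each of the 3 sets, with a narrow gap in the NICD1 6 h and mRFP1 sets, and ERBB3 did so in the NICD1 6 h set by 9.73 against 9.75 TPM.

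Over the 100 members the median of the mean r was -0.65 in the NICD1 24 h set, -0.67 in the NICD1 6 h set and -0.91 in the mRFP1 24 h set, where all transcripts of at least 5 TPM had -0.07, -0.05 and -0.18. A mean r below -1 was reached by 25, 15 and 36 members in these sets. The lowest of the 3 set means fell in the mRFP1 set for 56 members, in the NICD1 6 h set for 23 and in the NICD1 24 h set for 21. All transcripts of at least 5 TPM also had their lowest median in the mRFP1 set. Their shares for these counts were not taken, so nothing is read from the counts about the members. 71, 76 and 84 members were lower in all 3 embryos of the NICD1 24 h, NICD1 6 h and mRFP1 sets, against 15.1%, 17.1% and 29.9% of all transcripts of at least 5 TPM, and since the rule used these values nothing is read from the difference. The members were thus low with the plasmid that lacks NICD1 too, as the rule required, and NICD1 and mRFP1 are set side by side here with no test between them.

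Embryos of one set differed. The median r over the members was -1.07, -0.66 and -0.39 in embryos 19, 21 and 22 (NICD1 24 h), -1.02, -0.27 and -0.66 in embryos 12, 13 and 15 (NICD1 6 h), and -1.20, -0.45 and -0.96 in embryos 4, 23 and 24 (mRFP1). The 4 embryos with the lowest member medians, embryos 4, 19, 12 and 24, were also those with the lowest medians over all transcripts of at least 5 TPM, at -0.19, -0.18, -0.14 and -0.27. In these 4 the right library also detected fewer transcripts than the left, with 20892 against 21553, 20979 against 21115, 20121 against 21065 and 20344 against 21620 having an estimated count of at least 1. The right library detected fewer in embryos 21, 15 and 23 as well, with 20636 against 21322, 21381 against 21693 and 21243 against 21541. In embryos 13 and 22, where the member medians were closest to 0, the right library detected more, with 21447 against 21360 and 21492 against 21333. These numbers of detected transcripts are not adjusted for sequencing depth. Total estimated counts were lower on the right in embryos 4, 12 and 24, at 12469736 against 15663651, 8749489 against 13009032 and 11492595 against 15700058. In embryo 19 they were higher on the right, at 12845942 against 11795499. Embryos 13, 15, 21, 22 and 23 had lower totals on the right as well. The parts of depth, library quality and recovered RNA in the members' r were not tested. Total estimated counts were 8749489 to 18224622 per library.

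**Figure D3:**
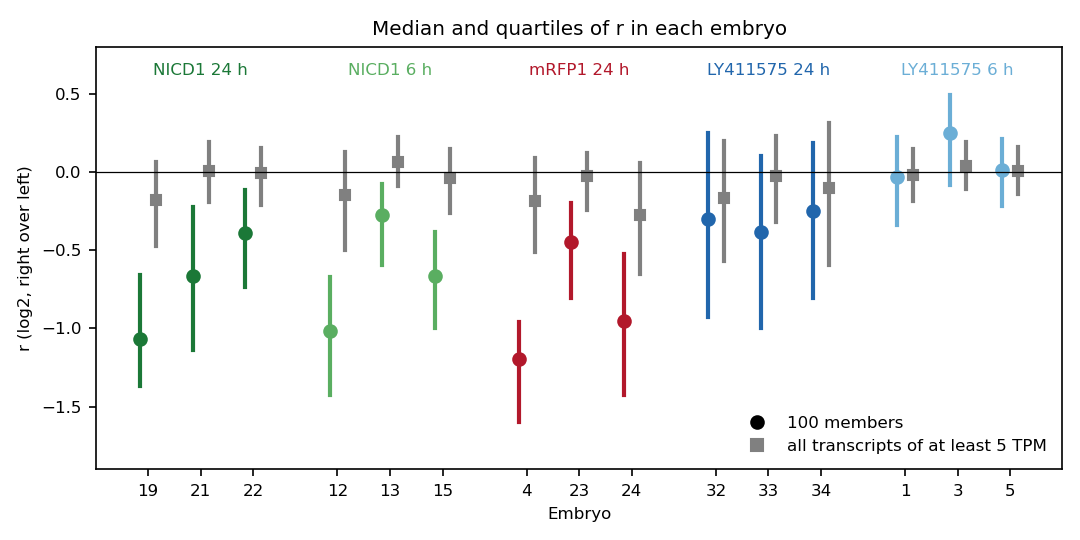
Median r (log2, right over left) of the 100 members (coloured circles) and of all transcripts of at least 5 TPM (grey squares) in each of the 15 embryos, with bars over the quartiles. Member medians lie between -1.20 and -0.27 in the 9 electroporated embryos, between -0.39 and -0.25 after 24 h of LY411575 and between -0.03 and 0.25 after 6 h.

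Members not lower on the right numbered 18 in embryo 13, 15 in embryo 22, 12 in embryo 24 and 11 in embryo 21. Of the 12 in embryo 24, 8 had a symbol, namely HTR1E, BMPER, PRLH, SLC16A3, SLC1A7, WNT2B, PLXDC1 and RET. For all 8, the left otocyst of embryo 24 held the lowest level of the 9 left otocysts in ovo. In that embryo WNT2B was at 10.7 TPM on the right, against 1.68 TPM on the left, PLXDC1 at 4.09 TPM, against 2.43 TPM, and RET at 10.3 TPM, against 9.53 TPM. Over all 100 members, 53 were lowest of the 9 left otocysts in embryo 24, where 18.1% of all transcripts of at least 5 TPM were. These libraries chose the members, so the share is a description.

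Marker transcripts of the tissues in and around the otocyst were present in every library, and none of the 32 transcripts of the 5 marker lists was at 0 in any library. The summed level of 10 otic epithelial transcripts was 378 to 726 TPM in NICD1 24 h otocysts against 626 to 788 TPM on the left, 526 to 715 TPM after 6 h against 771 to 869 TPM, and 575 to 777 TPM with mRFP1 against 548 to 921 TPM. 8, 9 and 9 of the 10 had a mean r below 0 in these sets, where 66.0%, 59.4% and 73.8% of all transcripts of at least 5 TPM did, and BMPER is the one member among them. The 8 mesenchyme transcripts summed to 523 to 780 TPM against 595 to 727 TPM, to 452 to 759 TPM against 406 to 468 TPM, and to 291 to 770 TPM against 547 to 732 TPM, with 4, 2 and 5 of the 8 below 0. The sums of the sides overlapped for both lists in most sets, and the otic sums were apart in the NICD1 6 h set. The 3 transcripts of neural crest and glia, of which ERBB3 is a member, summed to 286 to 1364 TPM against 471 to 601 TPM, to 490 to 589 TPM against 516 to 563 TPM, and to 286 to 581 TPM against 489 to 623 TPM, with 2, 2 and 3 below 0. The 6 neuroblast transcripts summed to 250 to 331 TPM against 208 to 409 TPM, to 230 to 293 TPM against 287 to 375 TPM, and to 172 to 316 TPM against 296 to 410 TPM, with 5, 4 and 6 below 0. Neither list kept its sides apart in any set. The 5 muscle transcripts summed to 188 to 204 TPM against 217 to 292 TPM, to 203 to 370 TPM against 197 to 244 TPM, and to 197 to 534 TPM against 206 to 390 TPM, with 5, 2 and 1 below 0, and their sides were apart in the NICD1 24 h set. The marker transcripts, too, were named through genes that the study called changed. They are not a random sample, and for BMPER and ERBB3 the rule required a mean r below 0. Nothing is therefore read from the shares of the marker lists below 0. In bulk libraries fewer cells of a type and less RNA per cell cannot be told apart. The part of tissue composition in the members' r was not tested.

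Genes of glycolysis and of the response to low oxygen held 3 members, SLC16A3, PFKFB3 and P4HA1, among 12 transcripts. 11, 12 and 11 of the 12 had a mean r below 0 in the NICD1 24 h, NICD1 6 h and mRFP1 sets, with medians of -0.21, -0.86 and -0.33. LDHA, the lactate dehydrogenase chain and not a member, was at 23.2, 35.4 and 45.1 TPM in NICD1 6 h otocysts, against 133, 345 and 379 TPM in the left ones. P4HA1 was at 43.1, 58.9 and 45.9 TPM, against 72.4, 101 and 88.9 TPM, in the same otocysts. In both genes the sides of that set did not overlap. The values given for LDHA are of that set alone, and the rule, which used all the electroporated sets, did not take it. The counts of P4HA1 were fractional in 29 of the 30 libraries. Collagens and matrix proteins held 2 members, COL2A1 and COL9A3, among 16 transcripts, of which 13, 10 and 15 had a mean r below 0, with medians of -0.39, -0.15 and -0.47. Over all transcripts of at least 5 TPM, 66.0%, 59.4% and 73.8% were below 0 in these sets. The 10 of 16 in the NICD1 6 h set is near that share. Both lists hold only transcripts named in the study's lists of changed genes. They are not a random sample of transcripts, and for the members in them the rule required a mean r below 0. Nothing is therefore read from the difference from these shares. Lists for the Notch pathway, immediate early genes, endoplasmic reticulum chaperones and the cell cycle held 0 members each. Of all 698 transcripts of at least 5 TPM with a symbol, 31 were members, and nothing is read from the number of members in a list.

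The cultured libraries did not enter the rule, and the inhibitor was tested on them in a fit of all 30 libraries, which takes its estimate of the spread from the electroporated sets as well. After 24 h with LY411575 the members' median of the mean r was -0.47, against -0.11 over all transcripts of at least 5 TPM. Single embryos lay closer to all transcripts. The members' median r was -0.30, -0.39 and -0.25 in embryos 32, 33 and 34, against -0.17, -0.03 and -0.10. In these embryos 61, 68 and 66 members were below 0, against 62.3%, 52.9% and 56.4% of transcripts of at least 5 TPM. 75 members had a mean r below 0, against 61.7% of these transcripts. 35 were lower in all 3 embryos, against 24.2%, and 7 were higher in all 3, against 12.4%. By edgeR's quasi-likelihood test, adjusted over the 21637 transcripts tested, 4 members were called changed, against 3.4% of all transcripts tested. 3 of them were lower and 1 was higher, against 1.85% and 1.55% of all and 3.09% and 2.86% of those of at least 5 TPM. The members' share of calls was thus close to that of transcripts of at least 5 TPM. The median level of these was higher, at 24.5 TPM against 12.9 TPM for the members. At an unadjusted p below 0.05, 20 members were lower and 5 higher, against 10.3% and 7.36% of all. Of all transcripts tested, 11534 had at least 5 TPM, and the unadjusted shares were not taken for these alone. The count of 4 calls moved with single embryos and with the tool, to 1 without embryo 32 (0.477% of all transcripts), to 17 with DESeq2 (12.3% of all) and to 0 with the 12 cultured libraries fitted alone, where 0% of all transcripts passed, so that the calls over all transcripts moved too. After 24 h in culture the right library detected 19917 against 21282 transcripts in embryo 32 and 19055 against 20706 in embryo 34. In embryo 33 both otocysts had 21176. Total estimated counts, for which detection is not adjusted, were 16444871 against 18224622, 9988756 against 11123987 and 17191109 against 15540808 in embryos 32, 34 and 33.

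PFKFB3 was the one named member that passed the test after 24 h of LY411575. Its levels were 2.49, 1.92 and 0.796 TPM with LY411575, against 6.43, 6.87 and 15.9 TPM in DMSO. The groups did not overlap, and the change was -2.26 ± 0.44 on the log2 scale (edgeR, adjusted p = 0.0200). The call held on leaving out each embryo in turn, and was lost with embryo 33 as the only pair (adjusted p = 0.122), a fit in which the spread comes from the other sets alone and the single pair is assumed to vary like them. It was lost too without the embryo term (adjusted p = 0.204) and with the cultured libraries fitted alone (adjusted p = 0.190). The counts of PFKFB3 were fractional in every library, so its reads were partly shared with other transcripts. COL9A3 was at 9.43, 15.3 and 22.0 TPM with LY411575, against 22.4, 31.4 and 26.8 TPM in DMSO, without overlap. Its change of -0.74 ± 0.21 on the log2 scale missed the threshold with edgeR (adjusted p = 0.0816) and passed it with DESeq2 (adjusted p = 0.00995) and in edgeR without embryo 34 (adjusted p = 0.0457). Of the 16 collagen and matrix transcripts, 15 had a log2 change below 0 and COL9A1 passed the test. Of the 12 of glycolysis and low oxygen, 6 were below 0 and PFKFB3 passed. Over all transcripts tested 51.8% were below 0, and 3.09% of those of at least 5 TPM were called lower. These lists and the marker lists are not a random sample, since their symbols come from genes that the study called changed. The mesenchyme transcripts summed to 202 to 288 TPM with LY411575 for 24 h, against 338 to 370 TPM in DMSO, with 7 of 8 log2 changes below 0. Those of neural crest and glia summed to 195 to 348 TPM, against 540 to 852 TPM, with 3 of 3 below 0 and none called. The neuroblast transcripts summed to 1172 to 1549 TPM, against 948 to 1094 TPM, with 2 of 6, both of EBF3, called higher. The sums of these 3 lists did not overlap between the groups. The otic transcripts summed to 214 to 326 TPM, against 239 to 348 TPM, and the muscle transcripts to 163 to 237 TPM, against 162 to 324 TPM, with ACTA2 called lower. The part of tissue composition in the members' values was not tested.

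After 6 h with LY411575 the members' median of the mean r was 0.05, against 0.01 over all transcripts of at least 5 TPM. 41 members had a mean r below 0, against 47.0%, with 14 lower in all 3 embryos, against 15.8%, and 24 higher in all 3, against 18.8%. By edgeR's test 0 members passed, against 0.0786% of all transcripts tested, and 1 member did at an unadjusted p below 0.05, against 2.66%. DESeq2 and limma-voom gave 0 as well, against 0.61% and 0.097% of all transcripts. The treated otocysts of this set, right ones as elsewhere, had summed member levels of 3119 to 3203 TPM with LY411575, against 2746 to 3431 TPM in DMSO, and these ranges overlapped. Between the 24 h and 6 h changes, edgeR called a difference in 0 members, against 0.111% of all. At an unadjusted p below 0.05 it did in 9, against 10.9%, and the difference was below 0 in 73 members, against 52.6%. limma-voom also gave 0, against 0.125% of all transcripts. DESeq2 gave 5, against 3.99%, and without embryo 33 edgeR gave 2, against 2.60%.

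Time in culture was compared between cultured left otocysts, which received DMSO alone, in a fit of all 15 left libraries. That fit takes its estimate of the spread from the untransfected in ovo otocysts as well, which entered the choice of members. Between 24 h and 6 h, 36 members differed, against 20.7% of the 20710 transcripts tested. 30 were lower after 24 h, against 9.6% of all and 13.1% of transcripts of at least 5 TPM, and 6 were higher, against 11.1% and 15.5%. The median log2 change of the members was -0.84, against -0.03 over all, and it was below 0 in 84 members, against 51.6% of transcripts. Both stand against all transcripts tested, of which 11527 had at least 5 TPM. In TPM, 56 members were lower in all DMSO 24 h otocysts than in all DMSO 6 h otocysts, against 34.6% of all transcripts of at least 5 TPM, and 7 were higher, against 17.1%. The 30 lower members changed by -3.15 to -0.88 on the log2 scale and included 11 with a symbol, while none of the 6 higher ones, at 1.17 to 2.22, had a symbol. Leaving out each embryo in turn gave 28 to 35 called members, against 13.8% to 17.3% of all transcripts tested. Of the 36, 25 were called each time. The share that kept its call over all transcripts was not taken, so nothing is read from this count about the members. The 24 h and 6 h embryos are different animals. Their shared label age is the age at which the paper dissected the otocysts before culture. Age at collection and time in culture therefore cannot be told apart here. The DMSO 24 h libraries also stand in the LY411575 24 h comparison, so the counts of these comparisons are not set against each other.

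COL2A1 was the most abundant of the members that fell with time in culture. It averaged 41.8 ± 6.93 TPM in DMSO for 24 h and 249 ± 8.98 TPM in DMSO for 6 h (SD, n = 3 each), a change of -2.37 ± 0.36 on the log2 scale (edgeR, adjusted p = 0.000683). The receptor ERBB3 averaged 1.78 ± 0.611 TPM after 24 h and 11.7 ± 1.14 TPM after 6 h, a change of -2.50 ± 0.39 (edgeR, adjusted p = 0.000844). KIRREL1 averaged 9.00 ± 2.46 TPM after 24 h and 36.1 ± 2.89 TPM after 6 h (-1.80 ± 0.23, edgeR adjusted p = 0.000287). In each of these the 3 otocysts of 24 h lay below the 3 of 6 h. BMPER averaged 6.56 ± 2.79 TPM after 24 h and 26.4 ± 6.10 TPM after 6 h, with a change of -1.79 ± 0.40 (edgeR, adjusted p = 0.00741). SLC26A9 averaged 0.854 ± 0.249 TPM after 24 h and 4.08 ± 1.70 TPM after 6 h, and changed by -2.05 ± 0.33 on the log2 scale (edgeR, adjusted p = 0.00108). ADRA2A averaged 7.12 ± 1.90 TPM after 24 h and 28.4 ± 8.20 TPM after 6 h, a change of -1.82 ± 0.41 (edgeR, adjusted p = 0.00757). These 3, a secreted protein, a transporter and a receptor, had groups without overlap too.

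Both PTPRF transcripts fell with time, with changes of -2.27 ± 0.37 for ENSGALT00000069062.2 and of -1.08 ± 0.16 for ENSGALT00000091047.1 on the log2 scale (edgeR, adjusted p = 0.00106 and 0.000603). RET averaged 12.7 ± 2.08 TPM after 24 h and 47.1 ± 6.67 TPM after 6 h, ITGB5 12.7 ± 1.16 TPM and 33.1 ± 3.37 TPM, and ZNF395 3.39 ± 0.393 TPM and 8.17 ± 1.01 TPM. Their edgeR calls (adjusted p = 0.0283, 0.0230 and 0.0314) depended on single embryos. RET lost its call without embryo 1, 5, 32, 33 or 34, ITGB5 without embryo 1, 5, 32 or 34, and ZNF395 without embryo 1, 3, 32, 33 or 34, with adjusted p values of 0.0547 to 0.0945. SLC16A3 ran the other way, at 73.3 ± 28.8 TPM after 24 h and 14.2 ± 2.88 TPM after 6 h. It did not pass the test (2.55 ± 1.04, edgeR adjusted p = 0.104). RET had fractional counts in all 30 libraries, so its reads were partly shared with other transcripts. Among members without a symbol, ENSGALT00000107519.1 changed by -3.04 ± 0.73 (edgeR, adjusted p = 0.0105).

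**Figure D4:**
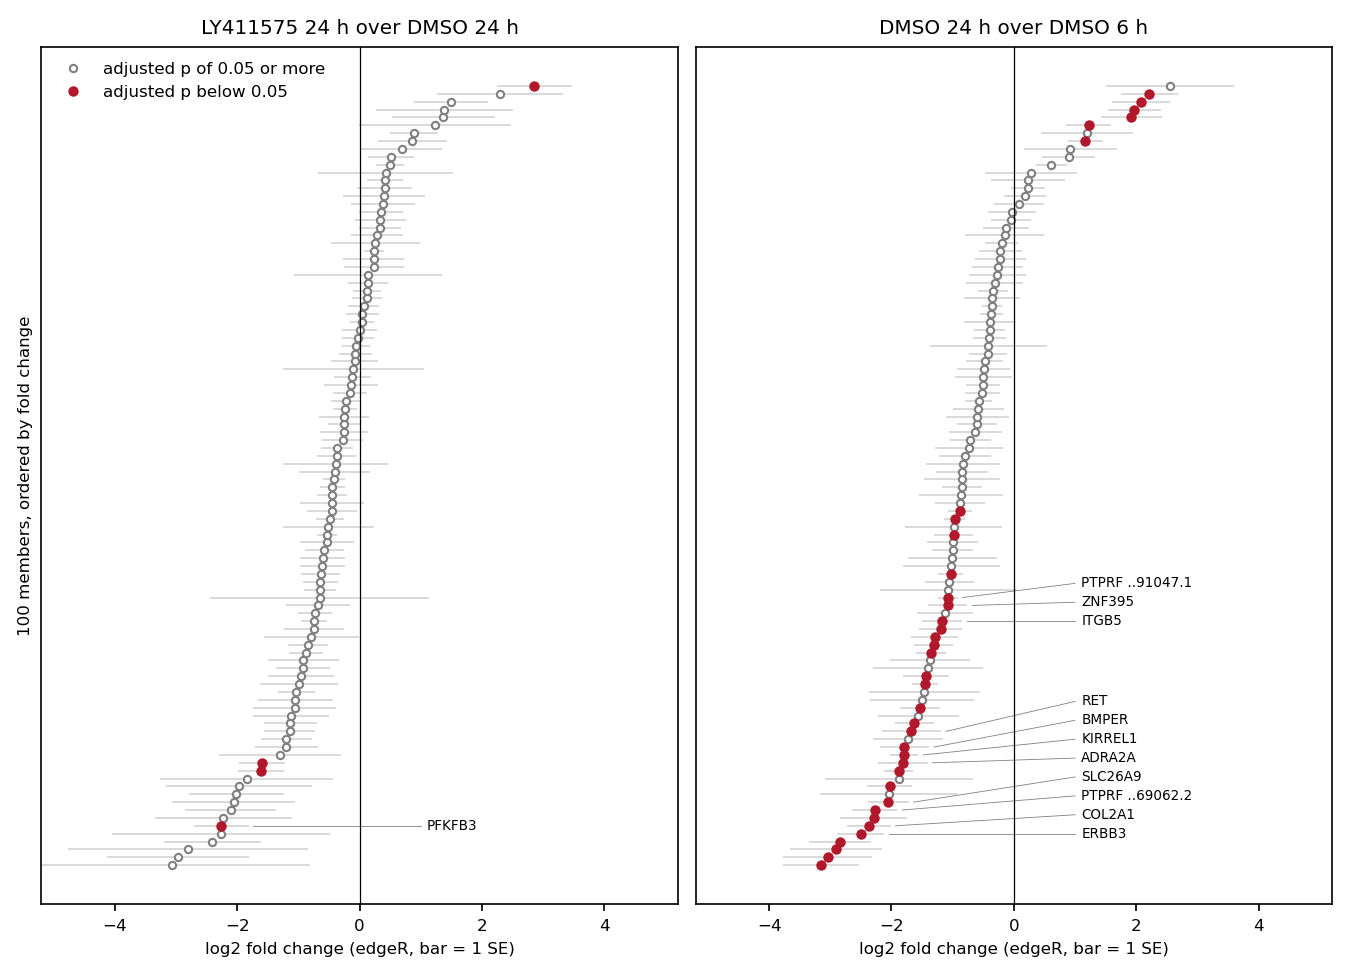
Log2 fold change (edgeR, bars are 1 SE) of the 100 members, ordered within each panel, for LY411575 24 h over DMSO 24 h (left) and DMSO 24 h over DMSO 6 h (right), with filled red points where the adjusted p is below 0.05 and symbols beside those that have one. The left panel holds 3 red points below 0 and 1 above, the right panel 30 below 0 and 6 above.

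Other lists moved with time in culture in the same left otocysts. Over all transcripts of at least 5 TPM, 13.1% were called lower and 15.5% higher in this comparison. The lists hold only transcripts named in the study's lists of changed genes, so they are not a random sample and their shares of calls carry little weight. Of 10 otic epithelial transcripts 8 were called lower and 0 higher, and their summed level was 239 to 348 TPM in DMSO for 24 h, against 708 to 834 TPM in DMSO for 6 h. Neuroblast transcripts had 4 of 6 called higher, with sums of 948 to 1094 TPM against 323 to 402 TPM. Mesenchyme transcripts had 2 of 8 called lower and 2 higher, with sums of 338 to 370 TPM against 448 to 527 TPM. Collagens and matrix proteins had 7 of 16 called lower and 0 higher, and glycolysis and low-oxygen genes had 1 of 12 called lower, CA9. Neural crest and glia had 2 of 3 called lower and 1 higher, with sums of 540 to 852 TPM against 551 to 627 TPM, and the member ERBB3 among the lower. Muscle transcripts had 3 of 5 called higher, with sums of 162 to 324 TPM against 159 to 186 TPM, and endoplasmic reticulum chaperones 10 of 16. The part of tissue composition in the members' change with time was not tested.

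Between untransfected left otocysts of embryonic day 3 and of day 2.5, which differ in stage and in time since the other side was electroporated, edgeR called 0 members and 0% of all 20710 transcripts tested. At an unadjusted p below 0.05, 8 members passed, against 5.48%. DESeq2 and limma-voom called 0 members, against 0.497% and 0% of all transcripts. These libraries also stand in r, as its left side, and so in the choice of members. The stage values are therefore a description, and nothing is read from them about the members. The members' median log2 change was -0.09, against 0.01 over all, with 58 members below 0, against 48.8% of transcripts. COL2A1 averaged 205 ± 58.3 TPM and 195 ± 135 TPM in the left otocysts of the NICD1 and mRFP1 24 h sets and 268 ± 43.2 TPM in those of the NICD1 6 h set (SD, n = 3 each). ERBB3 averaged 8.74 ± 2.69 TPM, 7.45 ± 4.42 TPM and 13.4 ± 4.44 TPM in these groups, and SLC26A9 9.83 ± 2.0 TPM, 11.7 ± 3.36 TPM and 13.2 ± 3.05 TPM. In all of these the ranges of day 3 and of day 2.5 overlapped. The order of levels differed between genes over the left groups, since COL2A1, BMPER and ERBB3 were lowest in DMSO for 24 h with the other groups overlapping, while SLC26A9 was low in both DMSO groups and KIRREL1 was highest in DMSO for 6 h.

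**Figure D5:**
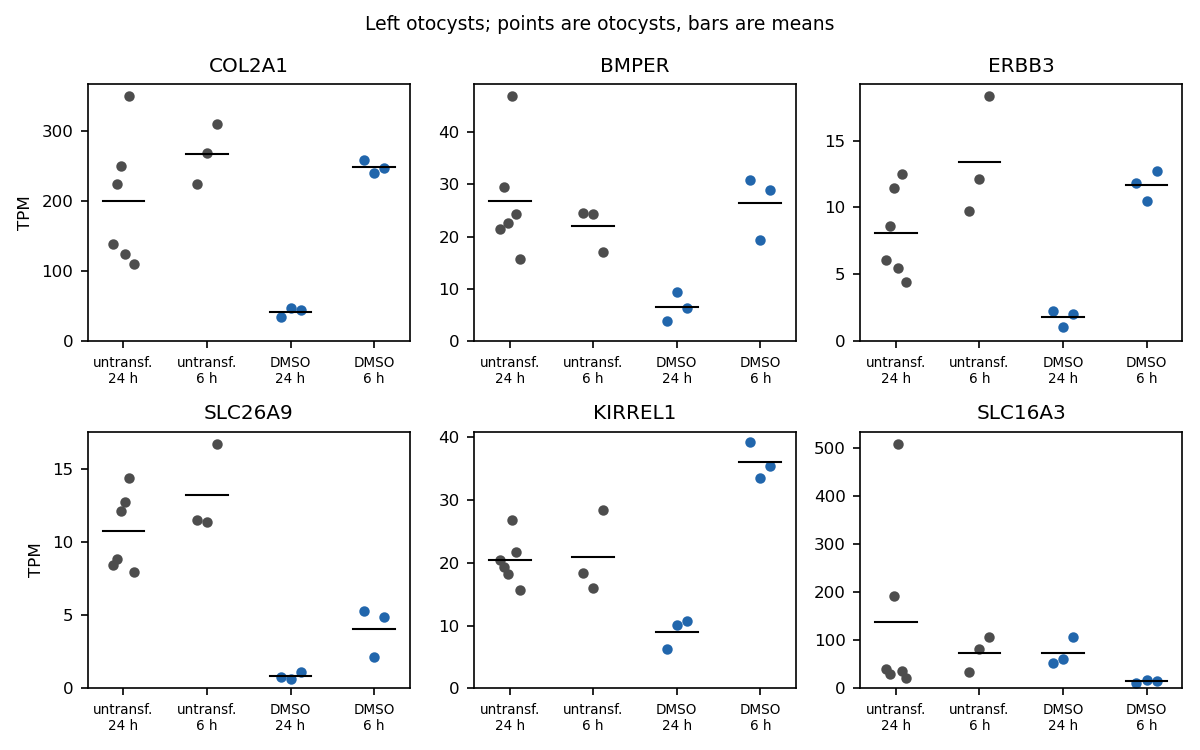
TPM of 6 named members in left otocysts (points; bars are means), untransfected after 24 h (n = 6, from the NICD1 and mRFP1 sets) and 6 h (n = 3) in grey, and cultured in DMSO for 24 h and 6 h (n = 3 each) in blue; each axis starts at 0. COL2A1, BMPER, ERBB3, SLC26A9 and KIRREL1 are lowest in DMSO for 24 h, and SLC16A3 is lowest in DMSO for 6 h.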

How the data were processed

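Total RNA of single otocysts was made into cDNA with SMART-Seq v4, which does not mark strand, and Nextera XT libraries, sequenced on a NextSeq 500. The authors quantified transcripts with kallisto (version not given in the sources used here) on GRCg6a and deposited, per otocyst, estimated counts, which need not be whole, and TPM, scaled for effective length and library size. TPM gave r and all levels. Gene symbols came only from identifiers in the study's lists of changed genes. The study's calls thus decided which transcripts have a symbol, while its values were not used. The files' IDs were matched to no other table. 4 of the 6 inhibitor samples carry a compound code other than LY411575 in a label, whereas the protocol gives LY411575. The 6 are taken here as the same compound.

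Estimated counts were rounded and tested with edgeR 4.0.16 (R 4.3.3): filterByExpr with a minimum count of 10, TMM, robust glmQLFit and glmQLFTest, with Benjamini-Hochberg adjustment over all transcripts tested and a threshold of 0.05. All 30 libraries were fitted with 1 term per embryo and 1 treatment term per set. The pairing comes from the embryo, and deviations of its otocysts from their group means correlated at 0.02 to 0.69. The 15 left libraries were fitted by group without an embryo term. Each model left 10 residual degrees of freedom. Standard errors are the log2 fold change over the root of its F statistic. Replicates are separate embryos, and their counts differed by far more than sampling noise. In simulated data for LY411575 24 h, on 21637 transcripts, 11% of those changed 2-fold and 95% of those changed 4-fold were recovered. Smaller changes were thus mostly not detectable. The simulated spread between replicates was set below the common dispersion of 0.24 fitted to these data. Only transcripts with ample counts were changed in it. Both recovered shares may therefore be too high for these data, above all for transcripts at low levels. Total estimated counts were 8749489 to 18224622 per library.

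Named were every member with a symbol, the 8 with the lowest mean r in full, 2 members without a symbol, and genes of lists. The members, lists and tests were chosen with earlier results of these data known. Alternatives were DESeq2 1.42.0, limma-voom (limma 3.58.1), other size factors and filters, no embryo term, subsets of libraries, each embryo left out, and other settings of the rule. The list of mesenchyme markers lacks the transcripts for some names, which were not analysed here, and no promoter or protein sequence was used here.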

Additional observations from a re-analysis of the deposited data

How the results depend on the processing

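The members depended on the rule. Of the 100, 53 were taken with a mean of at least 1 TPM, 64 with at least 10 TPM and 31 with r below 0 in 9 of 9 embryos, and 71 to 82 on leaving out each embryo. Settings added after seeing the data kept 84 with r less the embryo's median and 67 with r less its trend on transcript length. After 24 h of LY411575 the members' median r was -0.30 with a pseudocount of 5, against -0.47.

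The 4 calls after 24 h of LY411575 became 17 with DESeq2 (12.3% of all transcripts), 2 with limma-voom (3.75%), 1 with no replicate block, that is no embryo term (1.42%), 0 with the 12 cultured libraries fitted alone (0%), and 2 with embryo 33 as the only pair (0.334%), a setting chosen after seeing the data. Leaving out each embryo gave 1 to 5 (0.477% to 8.02%). For the difference between 24 h and 6 h, the 0 calls became 5 with DESeq2 (3.99%). They became 0 to 2 on leaving out each embryo (0.036% to 2.60%). DMSO 24 h against 6 h gave 35 to 41 calls with other tools, filters and size factors, against 14.5% to 27.7% of all transcripts. Of the 36 members, 24 were called under all 11 alternatives, a share not taken over all transcripts. LY411575 6 h and day 3 against day 2.5 gave 0 under every alternative run for them, without the block too for LY411575 6 h. Of all transcripts, 0.025% to 0.61% and 0% to 0.497% were called in these fits. For 19 named changes, 187 of 209 values kept their call and direction, 18 lost the call, 4 gained it and 0 reversed. The causes were not tested.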
